A study of Mus musculus with 6 samples.

Results

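Nuclear genes for complexes II to V of the mitochondrial respiratory chain were followed in the left ventricle of mice given ethanol. A gene was taken when its symbol names a subunit of succinate dehydrogenase (Sdha to Sdhd), of complex III (Uqcr or Cyc1), cytochrome c (Cycs), a subunit of cytochrome c oxidase (Cox4 to Cox8) or of ATP synthase (Atp5), and when at least 3 of the 6 libraries held a count of 10 or more. Of the 55487 genes in the files, 58 matched by name. Of these, 7 pseudogenes were left out and 3 genes were under the count minimum, namely Cox8c, Cox7b2 and a second entry of Atp5o. The remaining 48 genes comprise 4 of complex II, 10 of complex III with cytochrome c, 17 of complex IV and 17 of complex V. Beyond the count minimum, their values did not enter the rule.

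The study is on alcoholic cardiomyopathy, a disease of the heart muscle that follows heavy drinking. All mice were male C57BL/6 animals 8 weeks old, with no engineered allele named. Those of the ET group ate a diet holding 5% ethanol for 10 days and then received ethanol once by gavage, whereas those of the CONT group ate an isocaloric diet and received maltose-dextrin. Left ventricle was taken 9 h after the gavage, and each group has 3 bulk RNA libraries. The labels do not say that each library is a separate mouse, so the p-values rest on the spread from library to library, of which some may be technical. In bulk tissue, fewer cells of a type and less RNA per cell cannot be told apart.

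The libraries held from 31553420 to 33599269 expected counts in ET and from 28838386 to 37762233 in CONT. Of the tissue's markers, all 7 listed for cardiomyocytes were found, and their summed level was 30100, 52100 and 46200 CPM in ET replicates 1 to 3, against 48500, 54600 and 56100 CPM in CONT replicates 1 to 3. The 5 listed atrial markers summed to 8820, 333 and 58.8 CPM in ET and to 118, 75.2 and 1540 CPM in CONT. The 7 fibroblast markers summed to 1820, 704 and 561 CPM in ET and to 703, 601 and 614 CPM in CONT, and the 6 mesothelial ones to 177, 10.3 and 8.43 CPM in ET and to 7.42, 10.6 and 29.7 CPM in CONT. ET replicate 1 therefore had the lowest cardiomyocyte sum and the highest atrial, fibroblast and mesothelial sums of the 6 libraries, and CONT replicate 3 had the second highest atrial and mesothelial sums. Some markers differed from their sum. Of the cardiomyocyte markers, Ryr2 was lowest in CONT replicate 1 (452 CPM) and Actc1 in ET replicate 3 (2660 CPM). The atrial marker Bmp10 was highest in CONT replicate 3 (106 CPM, against 0.0533 CPM in ET replicate 1). The macrophage, smooth muscle and adipocyte sums were also highest in ET replicate 1. The 6 endothelial markers summed to 1590, 1370 and 976 CPM in ET and to 1990, 1860 and 1090 CPM in CONT, so in the sum CONT replicates 1 and 2 were the highest and the replicate 3 libraries the lowest. By fold change 2 of these markers were higher in ET and 4 lower. Pecam1 and Vwf were highest in ET replicate 1, at 310 and 281 CPM. The 6 brown adipocyte markers summed to 35.4, 37.9 and 42.2 CPM in ET and to 30.4, 34.3 and 29.7 CPM in CONT. Of these sums Cidea alone gave 17.9, 28.1 and 28.3 CPM in ET and 21.7, 25.2 and 19.8 CPM in CONT. Ucp1 was at 3.12 CPM in ET replicate 1, 0.0294 CPM in ET replicate 2 and 0 in the other libraries. ET replicate 3 had the highest hepatocyte sum (74.8 CPM, against 0.237 to 4.99 CPM in the other libraries) and the highest neutrophil sum (41.9 CPM, against 0.712 to 5.97 CPM). The libraries were also split by clustering their effective gene lengths. The number of 2 sets was a setting of the clustering, and how far the sets lie apart was not measured. The sets cross the groups: ET replicate 1 with CONT replicates 1 and 2 (set 1), and ET replicates 2 and 3 with CONT replicate 3 (set 2). No listed marker was at 0 in all libraries. The part of these differences in the results was not tested, and values within each set and without ET replicate 1 are given for each complex and list.

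The respiratory chain passes electrons from nutrients to oxygen in the inner mitochondrial membrane. Complex II, which is also the succinate dehydrogenase of the citric acid cycle, feeds electrons to ubiquinone, complex III passes them to cytochrome c, and complex IV hands them to oxygen. Complexes III and IV pump protons, and complex V uses the resulting gradient to make ATP, which the beating ventricle consumes at a high rate. Complex II is wholly encoded in the nucleus, whereas III, IV and V each combine nuclear subunits with some from mitochondrial DNA. Several oxidase subunits exist as a form found in most tissues and a form of heart and skeletal muscle. Nuclear respiratory factor 1 (NRF1), the ETS factor GABP, YY1 and the estrogen-related receptors (ERR) are transcription factors known for acting on many of these genes.

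Promoters of 5 genes are shown because they contrast 2 oxidase forms found in most tissues and 2 muscle forms with a complex II gene that holds matches of 3 kinds; they were chosen after their values were seen. Each covers 250 bases before and 50 after the RefSeq start on GRCm38.p6, written 5′ to 3′ on the strand of the gene, and capitals mark matches on either strand to the NRF1 core with a free base (the runs of 10 capitals in Cox6a1 and Sdhd, of which the sixth base is free), the ETS core (CCGGAAG) or the ERR core (TCAAGGTCA). In order they lie at chr5:115348909-115349208 (minus strand), chr19:7217567-7217866 (minus), chr7:140900397-140900696 (minus), chr7:30183921-30184220 (plus) and chr9:50603800-50604099 (minus).
Cox6a1: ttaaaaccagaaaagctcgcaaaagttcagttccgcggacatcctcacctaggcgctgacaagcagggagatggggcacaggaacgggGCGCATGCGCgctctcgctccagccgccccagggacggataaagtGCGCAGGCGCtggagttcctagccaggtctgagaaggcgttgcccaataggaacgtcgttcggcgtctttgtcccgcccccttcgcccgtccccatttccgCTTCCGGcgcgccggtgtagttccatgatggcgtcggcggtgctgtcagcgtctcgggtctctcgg
Cox8a: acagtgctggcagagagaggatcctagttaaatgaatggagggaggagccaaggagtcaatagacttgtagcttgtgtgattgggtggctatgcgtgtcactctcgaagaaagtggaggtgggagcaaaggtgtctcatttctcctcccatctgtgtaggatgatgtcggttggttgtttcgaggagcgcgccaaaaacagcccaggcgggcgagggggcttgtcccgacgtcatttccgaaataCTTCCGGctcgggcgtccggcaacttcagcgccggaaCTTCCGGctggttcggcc
Cox8b: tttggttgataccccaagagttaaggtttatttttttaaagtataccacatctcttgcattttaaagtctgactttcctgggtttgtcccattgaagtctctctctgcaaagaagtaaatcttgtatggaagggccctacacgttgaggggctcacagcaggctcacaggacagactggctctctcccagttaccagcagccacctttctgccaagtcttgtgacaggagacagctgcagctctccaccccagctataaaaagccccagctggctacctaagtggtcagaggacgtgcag
Cox7a1: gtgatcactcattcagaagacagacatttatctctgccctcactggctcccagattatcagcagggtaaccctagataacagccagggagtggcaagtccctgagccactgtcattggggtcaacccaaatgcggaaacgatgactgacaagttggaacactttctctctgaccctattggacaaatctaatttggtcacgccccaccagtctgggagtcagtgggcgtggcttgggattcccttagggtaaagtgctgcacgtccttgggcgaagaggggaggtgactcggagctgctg
Sdhd: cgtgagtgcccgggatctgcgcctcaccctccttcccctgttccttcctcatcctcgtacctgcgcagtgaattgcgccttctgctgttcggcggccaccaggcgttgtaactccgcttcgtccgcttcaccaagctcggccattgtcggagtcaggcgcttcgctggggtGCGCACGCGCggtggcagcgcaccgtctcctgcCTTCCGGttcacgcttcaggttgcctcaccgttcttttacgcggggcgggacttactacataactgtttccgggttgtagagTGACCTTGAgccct

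The table of RefSeq promoters held 39 promoters for 36 of the 48 genes, and the other 12 genes have none there. The NRF1 core without a free base (the first run of capitals in Cox6a1) stood in 4 of the 39 promoters (10.3%), against 1.33% of all 21263 coding promoters of the same length. With the free base, which takes in the stricter form, it stood in 10 (25.6%), against 6.38% of all. The ETS core stood in 13 (33.3%), against 11.6% of all, the YY1 core (AAGATGGC) in 3 (7.69%), against 3.05% of all, and the ERR core in 2 (5.13%), against 0.334% of all. Matches of different motifs did not overlap in the promoters of these genes. Cox6a1, the form of subunit 6a found in most tissues, held 2 NRF1 matches and an ETS match, and Cox8a held 2 ETS matches. In the promoters of the muscle forms Cox7a1 and Cox8b none of these letters occurred, which says nothing about the factors. None occurred either in that of Cox7a2, the partner of Cox7a1 found in most tissues. Cox6a2, the muscle partner of Cox6a1, has no promoter there, so the 5 genes shown do not stand for all forms. The median log2 fold change of ET over CONT was -0.37 in the 21 genes with any match and -0.38 in the 15 with a promoter and no match.

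Per transcript length, the genes were among the abundant messages of the ventricle. They took together 36296, 38797 and 36038 TPM in ET replicates 1 to 3, against 42484, 44992 and 40538 TPM in CONT, where TPM gives a gene's share of all transcripts after division by length. This is 3.6% to 3.88% of all TPM in ET and 4.05% to 4.5% in CONT. The highest mean level over the 6 libraries was that of Atp5b, the catalytic β subunit of ATP synthase, at 2773 TPM. Next came the oxidase genes Cox6a2 (2110 TPM), Cox7b (1989 TPM) and Cox4i1 (1833 TPM), the c-subunit gene Atp5g3 (1653 TPM) and the α-subunit gene Atp5a1 (1492 TPM). The lowest were Cox6b2 (4.53 TPM), Cox4i2 (9.34 TPM) and Cox6c2 (48.8 TPM), so the set spans a wide range of levels within the same complex. Cox6c2 is annotated as a processed pseudogene similar to Cox6c, and its reads may belong to that gene.

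Most of the genes had lower counts in ET than in CONT, and none passed the test. On the edgeR scale of CPM, counts relative to the library total, with TMM factors, 46 of 48 had a negative log2 fold change of ET over CONT and 2 a positive one, Sdha (0.09) and Cox6b2 (0.35), beside 48.1% negative among all 15727 genes tested. The median log2 fold change was -0.39 with a range from -0.73 to 0.35, against a median of 0.01 over all genes. In 29 genes (60.4%) every ET library lay below every CONT library, beside 8.36% of all genes, and in 0 genes every ET library lay above every CONT library, beside 6.89% of all genes. By the edgeR quasi-likelihood test, Benjamini-Hochberg adjusted over all genes, 0 of 48 were called at 0.05, beside 0.0% of all genes, and their adjusted p ran from 0.515 to 0.999. At an unadjusted p under 0.05, 7 of the 48 were lower, beside 4.46% of all genes. DESeq2 called 0 of the 48 and 1.2% of all genes (0.521% as lower), and limma-voom called 0 of the 48 and 0.0% of all genes.

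**Figure D1:**
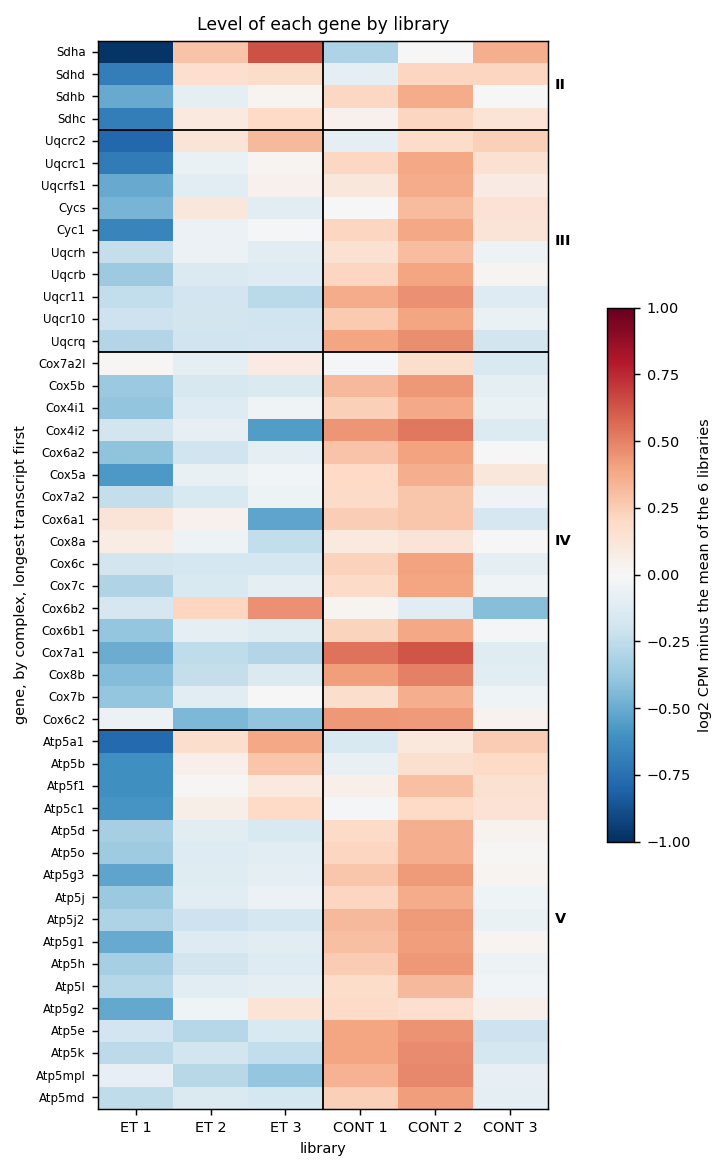
Level of each of the 48 genes in the 6 libraries, as log2 CPM minus the gene's mean over the libraries (colour), by complex and with the longest transcript of each complex at the top. ET replicate 1 is the lowest library in 39 genes and CONT replicate 2 the highest in 40, and the long transcripts of Sdha, Uqcrc2, Atp5a1 and Atp5b have ET replicates 2 and 3 above CONT replicate 1.

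The libraries did not contribute evenly to this shift. Averaged over the 48 genes, the deviation from the mean of the 6 libraries was -0.39, -0.09 and -0.06 in ET replicates 1 to 3, against 0.19, 0.34 and 0.00 in CONT replicates 1 to 3, all on the log2 CPM scale. ET replicate 1 was the lowest of all libraries in 39 genes, CONT replicate 2 the highest in 40, and CONT replicate 3 the lowest of the CONT libraries in 39. CONT replicates 1 and 2 were both above every ET library in 37 genes, and CONT replicate 3 was above every ET library in 32. Several of the 29 separations were narrow: the highest ET and the lowest CONT library were 367.2 and 368.5 CPM in Uqcrq, and 128.6 and 128.8 CPM in Atp5mpl. Within set 1, where ET replicate 1 meets CONT replicates 1 and 2, all 48 genes were lower in ET with a median of -0.66, and within set 2, 42 were lower with a median of -0.08, values that carry no test. With a term for the sets the median was -0.38 with 46 genes lower. Without ET replicate 1 it was -0.28, with 39 lower in ET. Here and below, leaving out that library leaves ET in set 2 only, whereas CONT replicates 1 and 2 are of set 1. Group and set are then partly mixed, and only CONT replicate 3 is of the same set as the ET libraries.

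**Figure D2:**
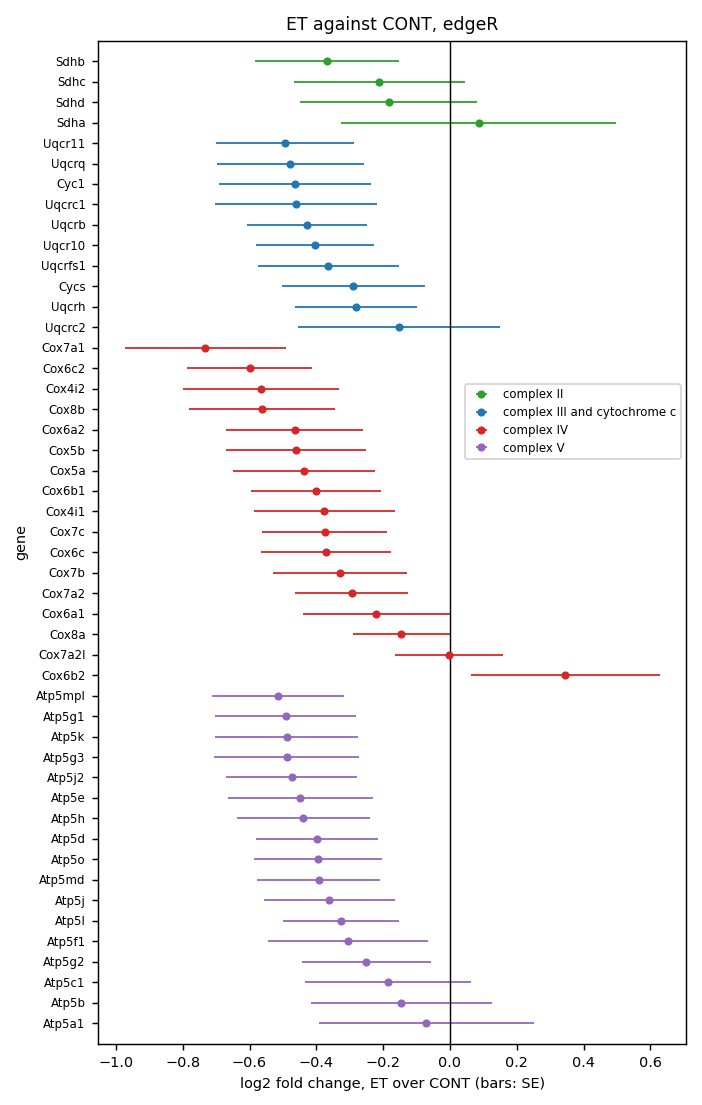
Log2 fold change of ET over CONT for each gene (points, edgeR on counts) with its standard error (bars, n = 3 libraries per group), sorted within each complex. All points except Sdha and Cox6b2 lie below 0, from -0.73 for Cox7a1 to -0.003 for Cox7a2l, and none passed the adjusted threshold.

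Complex II was the one whose genes all overlapped between the groups. Its 4 genes had a median log2 fold change of -0.20, with 3 lower in ET, beside a median of -0.78 within set 1 and -0.005 within set 2. Without ET replicate 1 the median was 0.05 with 1 lower, and without ET replicate 3 it was -0.35. Sdhb, the iron-sulfur subunit, had 394.2, 522.4 and 569.5 CPM in ET, against 642.2, 719.5 and 555.7 CPM in CONT. Its lowest value was in ET replicate 1, and ET replicate 3 lay above CONT replicate 3. Its log2 fold change was -0.37 ± 0.22 (SE, n = 3 per group; edgeR quasi-likelihood, Benjamini-Hochberg adjusted p = 0.624), and -0.21 without ET replicate 1.

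Sdhc and Sdhd, the membrane anchors that bind ubiquinone, followed a similar pattern. Sdhc had 168.5, 290.3 and 312.5 CPM in ET, against 279.3, 315.1 and 298.3 CPM in CONT, and Sdhd had 137.5, 249.6 and 252.6 CPM in ET, against 209.5, 258.8 and 258.1 CPM in CONT. In both, ET replicate 1 was far below the rest and the other ET libraries lay within or near the CONT range. The log2 fold changes were -0.21 ± 0.26 and -0.18 ± 0.27 (SE; edgeR quasi-likelihood, Benjamini-Hochberg adjusted p = 0.793 and 0.828), and without ET replicate 1 they turned to 0.03 and 0.07. Sdha, the flavoprotein that oxidises succinate and the longest transcript of the 48, was singled out after its values were seen. It had 385.2, 923.1 and 1180 CPM in ET, against 613.1, 757.4 and 974.8 CPM in CONT, so both extremes were ET libraries. Its log2 fold change of 0.09 ± 0.41 (edgeR quasi-likelihood, Benjamini-Hochberg adjusted p = 0.957) became 0.44 without ET replicate 1, -0.26 without ET replicate 3 and -0.36 with a term for the library sets.

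Complex III with cytochrome c had all 10 genes lower in ET, beside 48.1% of all genes. In 8 of them (80.0%) the groups did not overlap, beside 8.36% of all genes. The median log2 fold change was -0.42, beside -0.67 within set 1, -0.12 within set 2 and -0.26 without ET replicate 1. The 3 genes of lowest p encode small accessory subunits. Uqcr11 had 312.3, 323.0 and 306.3 CPM in ET, against 479.1, 508.3 and 338.4 CPM in CONT. Uqcrb had 254.6, 296.0 and 299.3 CPM in ET, against 380.4, 429.5 and 333.2 CPM in CONT. Uqcr10 had 198.1, 201.7 and 199.5 CPM in ET, against 274.4, 300.4 and 218.3 CPM in CONT. In each, the ET libraries lay close together, CONT replicate 3 was only slightly above them and CONT replicates 1 and 2 were well above. The log2 fold changes were -0.49 ± 0.21, -0.43 ± 0.18 and -0.40 ± 0.18 (SE, n = 3 per group; edgeR quasi-likelihood, Benjamini-Hochberg adjusted p = 0.572, 0.572 and 0.573).

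Cyc1, Cycs and the core genes Uqcrc1 and Uqcrc2, named after their values were seen, differed widely among the ET libraries. Cyc1, the cytochrome c1 gene, had 304.1, 461.3 and 474.4 CPM in ET, against 556.6, 628.5 and 524.0 CPM in CONT, with no overlap and a log2 fold change of -0.46 ± 0.23. Uqcrc1, a core subunit, had 504.3, 781.4 and 837.3 CPM in ET, against 943.6, 1070 and 909.1 CPM in CONT, also with no overlap, and had a log2 fold change of -0.46 ± 0.24. Uqcrc2, the other core subunit, had 279.3, 526.4 and 600.3 CPM in ET, against 451.8, 544.9 and 565.5 CPM in CONT. There ET replicate 3 was the highest of all libraries and ET replicate 1 the lowest, and the log2 fold change of -0.15 ± 0.30 became 0.13 without ET replicate 1 and -0.37 without ET replicate 3. Cycs, the mobile carrier between complexes III and IV, had 313.0, 469.0 and 403.5 CPM in ET, against 431.4, 538.3 and 479.6 CPM in CONT. Its groups overlapped through ET replicate 2, and its log2 fold change was -0.29 ± 0.21. Without ET replicate 1 the log2 fold change was -0.27 for Cyc1, -0.25 for Uqcrc1 and -0.13 for Cycs. The edgeR quasi-likelihood test (Benjamini-Hochberg) gave an adjusted p of 0.585 for Cyc1, 0.591 for Uqcrc1, 0.880 for Uqcrc2 and 0.674 for Cycs. The remaining 3 genes (Uqcrfs1, Uqcrh and Uqcrq) had log2 fold changes from -0.48 to -0.28, each with no overlap.

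Complex IV had 16 of 17 genes lower in ET (94.1%, beside 48.1% of all genes). In 10 (58.8%) the groups did not overlap, beside 8.36% of all genes. The median log2 fold change was -0.38, beside -0.63 within set 1, -0.08 within set 2 and -0.30 without ET replicate 1. Cox7a1, the muscle form of subunit 7a, had the largest difference of the 48 genes. It had 294.5, 348.5 and 339.0 CPM in ET, against 606.2, 642.3 and 382.6 CPM in CONT. All ET libraries were lower than all CONT libraries, but CONT replicate 3 was much nearer to ET than to the other CONT libraries. The log2 fold change was -0.73 ± 0.24 (SE, n = 3 per group; unadjusted p = 0.0188 and adjusted p = 0.515 by edgeR quasi-likelihood, Benjamini-Hochberg adjusted), or -1.06 within set 1 and -0.15 within set 2. With CONT replicate 3 and ET replicate 1 both left out it was called at -0.84 (edgeR quasi-likelihood, Benjamini-Hochberg adjusted p = 0.0313), and then 5.27% of all genes were called. The libraries then left are CONT replicates 1 and 2, both of set 1, and ET replicates 2 and 3, both of set 2. Group and library set cannot be told apart in that fit.

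Cox8b, the muscle form of subunit 8, showed the same layout. It had 247.3, 283.8 and 301.7 CPM in ET, against 447.3, 474.0 and 309.0 CPM in CONT, with CONT replicate 3 just above the ET range. The log2 fold change was -0.56 ± 0.22 (SE; edgeR quasi-likelihood, Benjamini-Hochberg adjusted p = 0.559), or -0.88 within set 1 and -0.08 within set 2. Cox6c2, the entry annotated as a pseudogene, had 7.15, 5.44 and 5.66 CPM in ET, against 10.0, 10.0 and 7.63 CPM in CONT. Its groups did not overlap, and its log2 fold change was -0.60 ± 0.19 (SE; edgeR quasi-likelihood, Benjamini-Hochberg adjusted p = 0.515). Like Cox7a1 it was called without the 2 libraries named above, at -0.83 (edgeR quasi-likelihood, Benjamini-Hochberg adjusted p = 0.0413), where group and library set cannot be told apart.

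**Figure D3:**
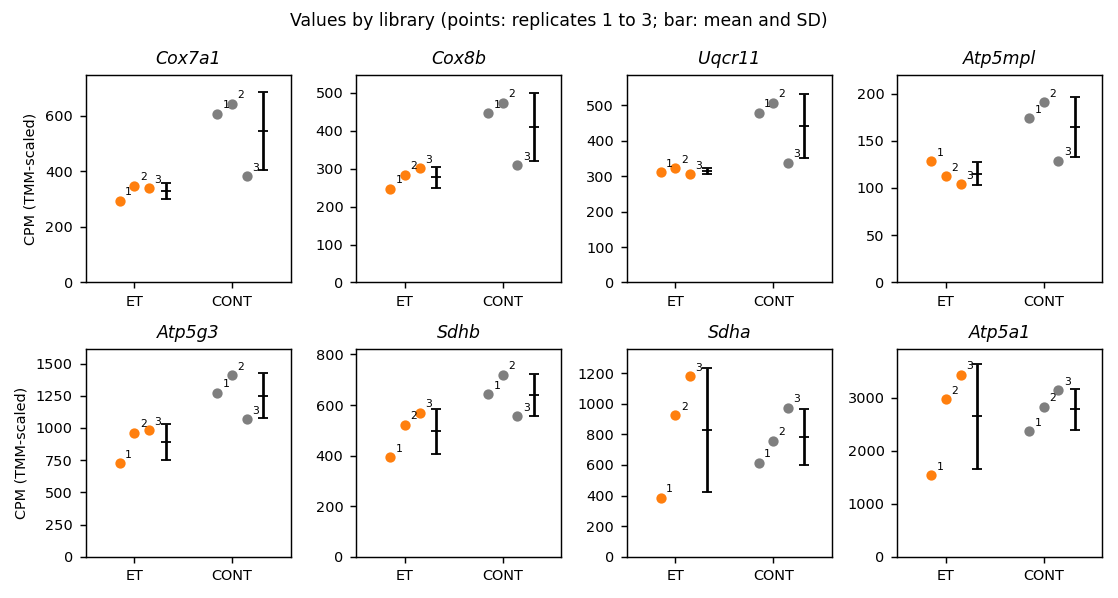
CPM (TMM-scaled) of 8 genes in each library (points, numbered by replicate) with the mean and SD of the group (bars, n = 3). In Cox7a1, Cox8b, Uqcr11 and Atp5mpl, CONT replicate 3 sits close to the ET libraries, whereas in Sdha and Atp5a1 ET replicates 1 and 3 are the extremes of all 6.

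The forms of the same subunit could be compared per length, as shares of their summed TPM. Cox7a1 made up 68.5%, 69.5% and 67.0% of Cox7a1 and Cox7a2 in ET, against 76.9%, 76.6% and 70.2% in CONT. Every ET share was below every CONT share, with a mean difference of -6.25 percentage points (two-sided exact permutation p = 0.1, the smallest that 3 against 3 can give; 0.25 adjusted over the 5 pairs). Cox7a2, the form found in most tissues, had itself 229.0, 243.6 and 261.6 CPM in ET, against 308.4, 328.0 and 264.1 CPM in CONT, so its own values did not overlap either but were closer, with a log2 fold change of -0.29 ± 0.17 (SE; edgeR quasi-likelihood, Benjamini-Hochberg adjusted p = 0.617).

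Cox8b made up 82.8%, 85.7% and 88.0% of Cox8b and Cox8a in ET, against 89.5%, 89.8% and 86.4% in CONT, with overlap through ET replicate 3 (difference -3.09 points, or -1.73 without ET replicate 1; exact permutation p = 0.2, adjusted 0.333). Cox8a, the form in most tissues, had 85.8, 78.9 and 68.8 CPM in ET, against 87.5, 89.3 and 81.4 CPM in CONT, and its log2 fold change of -0.15 ± 0.15 (SE; edgeR quasi-likelihood, Benjamini-Hochberg adjusted p = 0.749) was -0.07 without ET replicate 3 and turned to 0.04 on TPM. Cox6a2, the muscle form of subunit 6a, made up 92.5%, 93.8% and 96.0% of its pair in ET, against 94.8%, 95.1% and 95.3% in CONT, so the ET libraries lay on both sides of CONT (difference -0.98 points, or -0.17 without ET replicate 1 and -1.95 without ET replicate 3; exact permutation p = 0.4, adjusted 0.5). Its own level was 952.1, 1100 and 1186 CPM in ET, against 1538, 1667 and 1264 CPM in CONT, with no overlap and a log2 fold change of -0.47 ± 0.20 (SE; edgeR quasi-likelihood, Benjamini-Hochberg adjusted p = 0.573). Cox6a1 had 64.1, 60.5 and 40.7 CPM in ET, against 69.3, 71.2 and 52.0 CPM in CONT. It overlapped, with the lowest value in ET replicate 3, and its log2 fold change was -0.22 ± 0.22 (SE; edgeR quasi-likelihood, Benjamini-Hochberg adjusted p = 0.749). That value was -0.05 without ET replicate 3, -0.14 without CONT replicate 2 and -0.34 without CONT replicate 3.

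**Figure D4:**
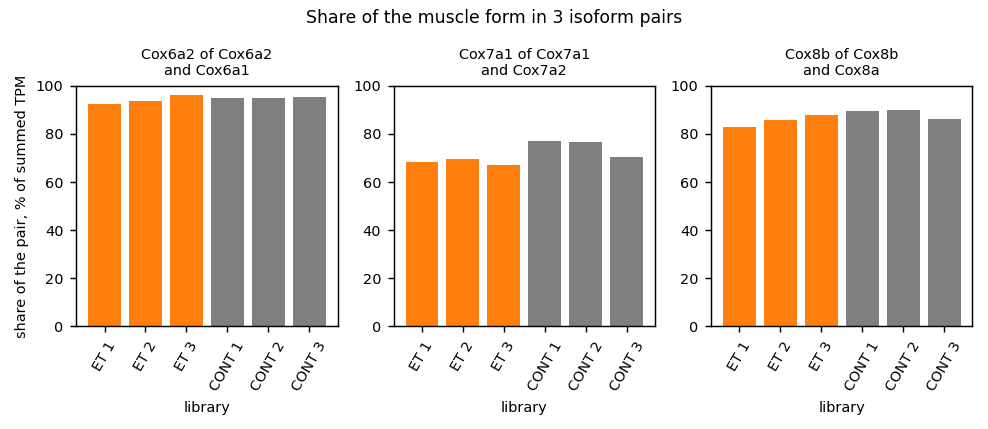
Share of the muscle form in the summed TPM of 3 isoform pairs (bars, 1 per library, axis from 0 to 100%). The Cox7a1 share is 67.0% to 69.5% in ET and 70.2% to 76.9% in CONT, whereas the Cox6a2 and Cox8b shares overlap between the groups.

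In the other 2 pairs the alternative form was scarce. Cox4i2, a form known from lung and low oxygen, had 5.2, 5.6 and 4.0 CPM in ET, against 8.0, 8.5 and 5.4 CPM in CONT, with overlap through ET replicate 2. Its log2 fold change was -0.57 ± 0.23 (SE; edgeR quasi-likelihood, Benjamini-Hochberg adjusted p = 0.572), and it made up 0.571%, 0.515% and 0.347% of its pair in ET, against 0.570%, 0.548% and 0.475% in CONT (exact permutation p = 0.7, adjusted 0.7). Its abundant partner Cox4i1 had 901.5, 1084 and 1158 CPM in ET, against 1400, 1544 and 1135 CPM in CONT, overlapped through ET replicate 3, and had a log2 fold change of -0.38 ± 0.21 (SE; edgeR quasi-likelihood, Benjamini-Hochberg adjusted p = 0.611).

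Cox6b2, a form known from testis, had a positive fold change over all libraries, but not within both sets. It had 1.63, 2.12 and 2.51 CPM in ET, against 1.86, 1.69 and 1.36 CPM in CONT, overlapped, and had a log2 fold change of 0.35 ± 0.28 (SE; edgeR quasi-likelihood, Benjamini-Hochberg adjusted p = 0.698). It was -0.11 within set 1, 0.76 within set 2 and 0.19 without ET replicate 3. As a share of Cox6b2 and Cox6b1 it was 0.442%, 0.428% and 0.581% in ET, against 0.309%, 0.269% and 0.268% in CONT, with no overlap (difference 0.20 points; exact permutation p = 0.1, adjusted 0.25). Cox6b1 itself had 369.5, 452.8 and 442.2 CPM in ET, against 563.5, 629.4 and 477.1 CPM in CONT, with no overlap and a log2 fold change of -0.40 ± 0.19 (SE; edgeR quasi-likelihood, Benjamini-Hochberg adjusted p = 0.583). Cox7b, whose testis partner Cox7b2 had 1 to 4 counts per library, had 391.4, 471.2 and 512.9 CPM in ET, against 576.5, 655.6 and 496.8 CPM in CONT. It overlapped through ET replicate 3, and its log2 fold change was -0.33 ± 0.20 (SE; edgeR quasi-likelihood, Benjamini-Hochberg adjusted p = 0.631), or -0.21 without ET replicate 1. Cox7a2l, a relative of subunit 7a that is also listed below among supercomplex and partner proteins, was singled out after its values were seen. It had 176.5, 164.4 and 185.2 CPM in ET, against 172.3, 197.4 and 157.3 CPM in CONT, and its log2 fold change was -0.003 ± 0.16, of the opposite sign under several scalings and at most 0.19 on TPM. The remaining 4 oxidase genes (Cox5a, Cox5b, Cox6c and Cox7c) had log2 fold changes from -0.46 to -0.37, each with no overlap.

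Complex V had all 17 genes lower in ET, beside 48.1% of all genes. In 11 (64.7%) the groups did not overlap, beside 8.36% of all genes. The median log2 fold change was -0.40, beside -0.66 within set 1, -0.07 within set 2 and -0.32 without ET replicate 1. Atp5mpl, a small membrane subunit, had the lowest p of the complex. It had 128.6, 112.4 and 104.3 CPM in ET, against 173.8, 190.8 and 128.8 CPM in CONT, so that ET replicate 1 and CONT replicate 3 almost met. Its log2 fold change was -0.52 ± 0.20 (SE; edgeR quasi-likelihood, Benjamini-Hochberg adjusted p = 0.551), and without those 2 libraries it was called at -0.73 (edgeR quasi-likelihood, Benjamini-Hochberg adjusted p = 0.0372). Without them, group and library set cannot be told apart. Atp5j2, the f subunit of the membrane part, had 330.7, 356.3 and 364.2 CPM in ET, against 515.2, 552.7 and 391.4 CPM in CONT. Its groups did not overlap, and its log2 fold change was -0.47 ± 0.20 (SE; edgeR quasi-likelihood, Benjamini-Hochberg adjusted p = 0.572).

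The 3 genes of the c ring, the rotor that protons turn, encode the same mature protein with different targeting sequences. Atp5g1 had 529.4, 686.9 and 695.4 CPM in ET, against 922.3, 1004 and 762.9 CPM in CONT, and Atp5g3 had 728.7, 964.6 and 983.4 CPM in ET, against 1274, 1411 and 1069 CPM in CONT. Neither overlapped, and the log2 fold changes were -0.49 ± 0.21 and -0.49 ± 0.22 (SE; edgeR quasi-likelihood, Benjamini-Hochberg adjusted p = 0.572 and 0.574). Atp5g2, the least abundant, had 64.8, 89.7 and 101.5 CPM in ET, against 105.4, 103.7 and 95.3 CPM in CONT, overlapped, and had a log2 fold change of -0.25 ± 0.19 (SE; edgeR quasi-likelihood, Benjamini-Hochberg adjusted p = 0.689), which was -0.07 without ET replicate 1 and -0.40 without ET replicate 3. Per length the ring summed to 2724, 3179 and 2916 TPM in ET, against 3596, 3764 and 3400 TPM in CONT, with no overlap. Its makeup varied little: Atp5g3 gave 50.3% to 50.5% in ET and 50.6% to 51.3% in CONT, Atp5g1 42.1% to 43.1% in ET and 42.6% to 43.2% in CONT, and Atp5g2 6.53% to 7.62% in ET and 5.71% to 6.54% in CONT.

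The catalytic head of the enzyme was spread differently, as the genes of its α and β subunits, named after their values were seen, show. Atp5a1 had 1534, 2968 and 3430 CPM in ET, against 2369, 2830 and 3136 CPM in CONT, and Atp5b had 2355, 3747 and 4381 CPM in ET, against 3426, 4023 and 4145 CPM in CONT. In both, ET replicate 1 was the lowest and ET replicate 3 the highest of the 6 libraries. The log2 fold changes of -0.07 ± 0.32 and -0.15 ± 0.27 (SE; edgeR quasi-likelihood, Benjamini-Hochberg adjusted p = 0.954 and 0.869) turned to 0.22 and 0.09 without ET replicate 1, and were -0.31 and -0.34 without ET replicate 3. The TPM ratio of Atp5a1 to Atp5b was 0.433, 0.644 and 0.632 in ET, against 0.445, 0.478 and 0.599 in CONT, so it was low throughout set 1 and high throughout set 2. The ratio of Sdha to Sdhb behaved likewise, with 0.472, 0.779 and 0.880 in ET, against 0.408, 0.488 and 0.792 in CONT. TPM divides by effective length, from which the sets were made, so such a split is not independent of the sets. The effective length of Atp5b was 1095 to 1182 bases in set 1 and 1498 to 1541 in set 2. That of Atp5a1 was 1703 to 1737 and 1873 to 1910 bases. Sdha overlapped between the sets (2211 to 2496 and 2362 to 2514 bases), and Sdhb had 1067 bases throughout. The remaining 10 genes of complex V had log2 fold changes from -0.49 to -0.19, and in 7 of them the groups did not overlap. Atpif1, the inhibitor that binds the head and is no member, had 67.1, 81.3 and 73.4 CPM in ET, against 96.1, 109.0 and 81.3 CPM in CONT, with ET replicate 2 next to CONT replicate 3 and a log2 fold change of -0.37 ± 0.17 (SE; edgeR quasi-likelihood, Benjamini-Hochberg adjusted p = 0.574).

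Summed per length, complexes III, IV and V were lower in every ET library than in every CONT library. Complex III summed to 6320, 6665 and 5915 TPM in ET, against 7336, 7785 and 6935 TPM in CONT, a log2 ratio of -0.22. Complex IV summed to 13857, 14329 and 13230 TPM in ET, against 16358, 17195 and 14910 TPM in CONT, a log2 ratio of -0.23. Complex V summed to 15108, 16272 and 15364 TPM in ET, against 17584, 18639 and 17129 TPM in CONT, a log2 ratio of -0.19. Each gave a two-sided exact permutation p of 0.1, the smallest possible here (0.133 adjusted over the 4 complexes). Complex II summed to 1010, 1531 and 1529 TPM in ET, against 1205, 1373 and 1565 TPM in CONT, and overlapped (log2 ratio -0.03; exact permutation p = 0.8, adjusted 0.8). That ratio was 0.15 without ET replicate 1 and 0.07 without CONT replicate 3. On TPM the median of the 48 genes was -0.19, nearer to 0 than on counts, but the median of all genes was higher than on counts. On log2(TPM + 1) that of all genes was 0.15, a difference of -0.34. On log2(TPM + 0.1) it was 0.18, a difference of -0.37, against -0.40 on counts. Without overlap on TPM were 19 genes, beside 3.27% of all genes.

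The size of the difference went with transcript length in these libraries. Effective length, the part of a transcript in which a fragment can start, was under 500 bases in 20 of the genes, 500 to 1000 in 16, 1000 to 2000 in 11 and over 2000 in Sdha alone. Their median log2 fold changes were -0.40, -0.44, -0.19 and 0.09, against -0.18, -0.15, -0.04 and 0.09 for all genes tested in the same ranges. Groups did not overlap in 15, 12, 2 and 0 genes, which is 75.0%, 75.0%, 18.2% and 0.0%, beside 12.0%, 15.0%, 10.2% and 5.7% of all genes in these ranges. Across the 48 genes the fold change and the length had a Spearman rho of 0.48, a description over genes that share the same libraries, and the value over all 15727 genes was 0.25. Within set 1 rho was -0.38 and within set 2 it was 0.15, so the order by length was not the same in the sets. In the range of 1000 to 2000 bases the median was 0.01 without ET replicate 1. The part of transcript length in the shift was not tested.

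**Figure D5:**
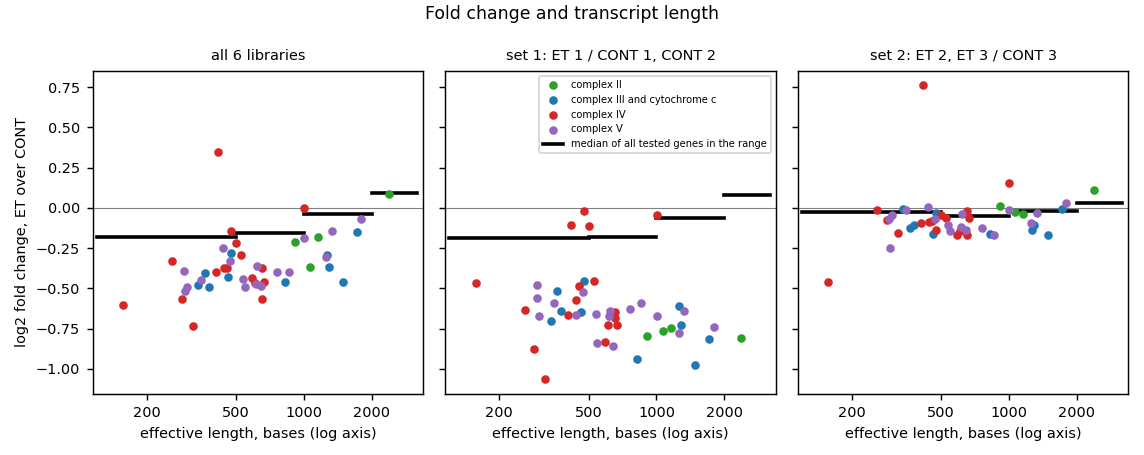
Log2 fold change of ET over CONT (vertical) against effective transcript length in bases (horizontal, log axis) for the 48 genes, over all 6 libraries, within set 1 and within set 2; black lines are medians of all tested genes in the 4 length ranges. All genes but Cox6b2, Cox7a2l and Cox8a lie below the lines with all libraries, and all but these and Cox6a1 do in set 1, where the median of the 48 is -0.66. In set 2 it is -0.08.

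The other genes of the pathway were given as lists, by count. Of the 6 mitochondrially encoded subunits of complexes III to V, 5 were lower in ET, 0 without overlap, with a median log2 fold change of -0.10 and a range from -0.47 for mt-Co3 to 0.01 for mt-Co2. Within set 1 the median was -0.52 with 5 lower, within set 2 it was 0.16 with 1 lower, and without ET replicate 1 it was -0.07 with 3 lower. mt-Cytb, the cytochrome b of complex III, had 31540, 35190 and 44810 CPM in ET, against 46390, 48930 and 41170 CPM in CONT, overlapped through ET replicate 3, and had the lowest p of the list (log2 fold change -0.29 ± 0.22; edgeR quasi-likelihood, Benjamini-Hochberg adjusted p = 0.685). Of 38 tested assembly factors, which insert cofactors and build the complexes, 34 were lower, 10 (26.3%) without overlap, beside 8.36% of all genes, and the median was -0.17. It was -0.51 within set 1 with 38 lower, -0.06 within set 2 with 27 lower, and -0.10 without ET replicate 1 with 23 lower. Cox19, a copper-handling factor of complex IV, had 17.2, 17.1 and 16.7 CPM in ET, against 26.4, 22.8 and 21.8 CPM in CONT, with no overlap (log2 fold change -0.47 ± 0.12; edgeR quasi-likelihood, Benjamini-Hochberg adjusted p = 0.478). Of 9 supercomplex and partner proteins, which share Higd1a with the assembly factors and Cox7a2l with the 48 genes, 8 were lower, 3 (33.3%) without overlap, with a median of -0.21. It was -0.49 within set 1 with 9 lower, -0.05 within set 2 with 5 lower, and -0.04 without ET replicate 1 with 5 lower. No gene of these lists was called, beside 0.0% of all genes.

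Regulators were split evenly over all libraries, but not within the sets. Of 18 known regulators of these genes, 9 were lower and 9 higher in ET, with 2 lower and 2 higher without overlap (11.1% for lower, near the 8.36% of all genes; the share higher among all genes was 6.89%) and a median log2 fold change of -0.02. Within set 1 the median was -0.36 with 15 lower, within set 2 it was 0.05 with 6 lower, and without ET replicate 1 it was 0.13 with 6 lower. Nrip1, a corepressor known to restrain oxidative genes, had 17.9, 22.1 and 18.9 CPM in ET, against 10.9, 11.0 and 15.1 CPM in CONT. It lay higher in every ET library than in every CONT library, with a log2 fold change of 0.67 ± 0.17 (SE; unadjusted p = 0.00589, adjusted p = 0.478 by edgeR quasi-likelihood, Benjamini-Hochberg adjusted). Ppargc1a, the coactivator known for mitochondrial biogenesis, was added for its role with its values known. It had 32.5, 64.2 and 93.4 CPM in ET, against 31.4, 44.4 and 76.7 CPM in CONT, a spread within each group larger than the difference between them (log2 fold change 0.32 ± 0.45; edgeR quasi-likelihood, Benjamini-Hochberg adjusted p = 0.822). Nrf1, the gene of the factor whose core was searched above, had 9.39, 9.02 and 9.02 CPM in ET, against 10.3, 9.81 and 8.05 CPM in CONT, and was likewise added for its role (log2 fold change -0.04 ± 0.15; edgeR quasi-likelihood, Benjamini-Hochberg adjusted p = 0.942).

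Lower values in ET were also counted outside complexes II to V. Of 39 complex I subunits, 38 were lower in ET, 25 (64.1%) without overlap, beside 8.36% of all genes, with a median log2 fold change of -0.41. It was -0.69 within set 1, -0.08 within set 2 with 33 lower, and -0.33 without ET replicate 1. Of 78 mitochondrial ribosomal proteins, 74 were lower, 23 (29.5%) without overlap, with a median of -0.24. It was -0.49 within set 1, -0.04 within set 2 with 46 lower, and -0.14 without ET replicate 1 with 63 lower. Of 89 cytosolic ribosomal proteins, 75 were lower, 2 (2.25%) without overlap, with a median of -0.08. It was 0.01 within set 1 with 41 lower and 0.002 within set 2 with 43 lower, but -0.15 without ET replicate 1 with 82 lower, close to the mitochondrial ribosomal value without that library. With CONT replicate 3 left out as well, which leaves CONT in set 1 and ET in set 2, it was -0.22, against -0.19 for the mitochondrial ribosomal proteins. These lists share the 6 libraries with the 48 genes, and differences between lists were not tested.

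Some of the genes may share reads with a neighbour on the opposite strand, since the use of strand is not given in the sources used here. Exons of a gene on the opposite strand covered 35.6% of the exon bases of Atp5o, 19.8% of Uqcrc2, 12.8% of Cox5a and 12.7% of Atp5j, whose partner is the regulator Gabpa. Genes on the same strand covered 12.3% of the exon bases of Atp5o and 4.48% of those of Atp5g2, whatever the use of strand. Reads from such partners cannot be told apart.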

How the data were processed

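RNA libraries of left ventricle (3 ET, 3 CONT) were prepared from 1000 ng of total RNA with a NuGEN Universal mRNA Plus kit and sequenced as paired reads of 75 bp, with about 15 M planned per library, per the labels' protocols. Alignment used STAR 2.7.0f and quantification RSEM 1.2.31 on mm10, per the submitters' processing notes. The release of the annotation and the setting for strand were not given in the sources used here. The authors deposited expected counts per gene, not normalized, which were rounded to whole numbers for count tests. TPM and FPKM values were deposited for each library, per the file headers. TPM served for levels between genes, and effective length came from the ratio of expected counts to deposited FPKM, scaled by the library total. Libraries were clustered by average linkage on log2 effective lengths of 9646 genes with counts of at least 100 and FPKM over 1 in every library. The tree was cut into 2 library sets, a number that was set and not found from the data.

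Genes passing edgeR's filterByExpr (minimum count 10, minimum total 15) numbered 15727. The contrast of ET over CONT used the robust quasi-likelihood test of edgeR with TMM factors, two-sided, Benjamini-Hochberg adjusted over all these genes, at a threshold of 0.05 and with no covariate. The TMM factors were 1.19, 1.01 and 0.92 in ET and 0.968, 0.927 and 1 in CONT, and the biological coefficient of variation was 0.297. The smallest adjusted p of any gene was 0.427. Single values per library were compared by two-sided exact permutation tests, whose p cannot go below 0.1. Complexes and lists are described by counts and medians without a test. Annotation came from GENCODE vM21 (GRCm38), which holds 55394 of the gene IDs, and promoters from RefSeq.

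The 48 genes, the gene lists, the markers and the rule for named genes were chosen with earlier results of these data known. Values in every library are given for the 3 genes of lowest p in each complex, the isoform pairs, the c ring, the inhibitor Atpif1 and any gene higher in ET with no overlap; genes named outside this rule are marked. At most 3 genes of a further list are named. The symbol pattern for cytosolic ribosomal proteins also takes in Rps6k kinases, which were left out. Alternatives were other scalings, filters, tools and units, leaving out libraries, and fits by library set; the count without overlap on TPM and on library totals was added after seeing the data. Versions were DESeq2 1.42.0, edgeR 4.0.16 and limma 3.58.1 in R 4.3.3, and scipy 1.17.1, pandas 2.3.3 and matplotlib 3.10.9 in Python 3.11.15.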

Additional observations from a re-analysis of the deposited data

How the results depend on the processing

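No paired analysis was possible because the labels number no replicates, and numbers given in deposit order link no libraries. Over all genes edgeR called 0 genes (1360 at an unadjusted p under 0.05) also without each library in turn, DESeq2 called 185, limma-trend on log2(TPM + 1) called 1 and on log2(TPM + 0.1) called 2, and edgeR without CONT replicate 3 and ET replicate 1 called 828 (5.27%), of which 3 were among the 48 genes. In that last fit every CONT library was of set 1 and every ET library of set 2. Its calls cannot be assigned to group rather than set. The median over the 48 genes was -0.192 on TPM with either pseudocount, -0.664 within set 1 and -0.079 within set 2, and lay between -0.475 and -0.269 without each library in turn. By complex it was -0.781 for II, -0.673 for III, -0.632 for IV and -0.66 for V within set 1, and -0.115 for III, -0.079 for IV and -0.071 for V within set 2. On TPM it was -0.186 for IV and -0.203 for V with either pseudocount. Without overlap on TPM were 19 genes.

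Leaving out each library in turn turned the sign of the summed TPM of complex II (-0.122 to 0.147), the Cox4i2 share (-0.0997 to 0.0127 points), Sdhc (-0.377 to 0.034), Sdhd (-0.324 to 0.067), Sdha (-0.258 to 0.441), Atp5a1 (-0.305 to 0.217), Atp5b (-0.343 to 0.087), Uqcrc2 (-0.372 to 0.128) and Cox7a2l (-0.065 to 0.094). Without CONT replicate 3 and ET replicate 1 the log2 fold change was 0.042 for Sdhc, 0.123 for Sdhd, 0.321 for Atp5a1, 0.147 for Atp5b and 0.198 for Uqcrc2. On TPM it was 0.038 for Cox8a and 0.004 for Atp5a1, by limma-voom -0.029 for Sdha, and with a term for the sets -0.361 for Sdha. For Cox7a2l it was 0.012 with RLE factors and with DESeq2, 0.108 on library totals, 0.003 without mitochondrially encoded genes, 0.015 with no filter, 0.188 and 0.189 on TPM and 0.043 with a term for the sets. Of 620 values for 31 genes, 30 were classed as reversed, 44 as moved, 3 as stronger and 543 as the same. The last class also holds values within a single set, which carry no p. Some of these had the opposite sign, such as 0.015 for Sdhc within set 2, against -0.211 in the main fit. Values classed as moved also include opposite signs, such as -0.808 for Sdha within set 1, against 0.086 in the main fit. The number classed as reversed therefore does not count every change of sign. On library totals the median of all genes was 0.121, against 0.014 with TMM factors, and that of the 48 genes was -0.281. Causes of these differences were not tested.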
